A study of Mus musculus with 8 samples.

Results

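Histone lysine methylation enzyme genes were examined for binding of Bcl11b, a zinc finger transcription factor of the T cell lineage, in mouse thymocytes. The members were the protein-coding genes of the mm10 RefSeq annotation whose symbols start with Kdm, Kmt, Setd, Prdm or Nsd followed by a digit, which gave 51 genes of 21900. The regions were the deposited 201 bp intervals whose midpoint lay in the body of such a gene, or had it as the nearest protein-coding gene body within 100 kb. Of 93708 deposited intervals 361 were assigned to 48 of the 51 genes, and 267 of these, at 45 genes, passed the filter on low counts that left 63098 intervals in all. The rule used symbols and positions only, no ChIP signal. The farthest tested member lay 60.8 kb outside Prdm11, with a log2 fold change of -1.35, and the nearest interval beyond the limit lay 129.0 kb from Setd4, with a log2 fold change of -0.27.

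Binding was measured by chromatin immunoprecipitation with an antibody against Bcl11b and sequencing (ChIP-seq) of freshly isolated thymocytes from the thymus, in 3 libraries of the genotype Bcl11b+/+ (wild type) and 3 of Bcl11b+/N440K, in which 1 of the alleles encodes an amino acid exchange in Bcl11b. The comparison asks where Bcl11b binding differs between these genotypes. N440K thymocytes keep a wild type allele, and what the antibody brought down of either protein cannot be told apart. The labels name neither strain nor age, nor whether each library came from its own animal or a pool, and the p-values cover the spread between libraries only, which may be technical. No input library entered the comparison, and signal therefore has no background level beside it.

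Lysine residues of histone tails carry methyl groups that are written by methyltransferases, most with a SET domain, and removed by demethylases of the LSD or JmjC (Jumonji) type. Methylation of H3K4 marks promoters and enhancers of active genes, H3K36 methylation the bodies of transcribed genes, and H3K9, H3K27 and H4K20 methylation mostly silenced or compacted chromatin. PRDM proteins share a SET-like PR domain with zinc fingers. Some of them have methyltransferase activity, and others act as DNA-binding factors that recruit such enzymes. In the T lineage, Prdm1 (Blimp1) is known for restraining effector and memory T cells, and Kmt2a (MLL1) and the H3K27 demethylases Kdm6a (UTX) and Kdm6b (JMJD3) for roles in blood and T cell development.

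Reads over all deposited intervals totalled 1787899 to 2661343 per library. Signal is given as CPM, the reads in an interval scaled to a common total over the tested intervals and by TMM, a factor that aligns libraries. Intervals lay at 12 of 12 T cell marker genes, with 124 tested intervals whose summed signal was 3222 to 3469 CPM in wild type against 3015 to 3076 CPM in N440K. This list includes Bcl11b itself, whose part in the sums was not tested. Of 27 tested Bcl11b intervals within 250 kb of its neighbour Setd3, 25 were lower in N440K by sign (median log2 fold change -0.63). Intervals also lay at 4 of 6 B cell, 3 of 4 NK cell, 1 of 4 myeloid, 2 of 3 erythroid and 2 of 4 thymic epithelial marker genes. For the B cell list the sums were 159 to 167 CPM in wild type against 135 to 158 CPM in N440K, for the NK list 389 to 397 and 408 to 436 CPM, and for the myeloid list 172 to 255 and 162 to 169 CPM. Erythroid markers summed to 49.8 to 61.96 and 47.0 to 59.9 CPM, and thymic epithelial markers to 104 to 130 and 92.7 to 122 CPM. Binding at a marker gene is not its expression, and fewer cells of a type and less binding per cell cannot be told apart in bulk thymocytes. The part of cell composition in the results was not tested.

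Promoter windows from 250 bases before to 50 after the annotated start were on hand for 36 member genes (50 windows, RefSeq on GRCm38.p6, the coordinates of mm10). A tested interval overlapped 35 of these windows, at 27 genes. Those of 4 genes are shown, 5' to 3' on the gene's strand. Capitals mark TGACCA, the core of the Bcl11a motif, TGTGGT, the core of RUNX sites, CCGGAA, the core of ETS sites, and GGGCGG, the GC box, on either strand. Kdm5c (chrX:152232977-152233276, + strand) held the strongest member interval, which covered the first 187 bases of its window. Kmt2a (chr9:44881240-44881539, - strand) belongs to the H3K4 methyltransferase list, and an interval covered the first 157 bases of its window. Prdm11 (chr2:93046116-93046415, - strand) belongs to the gene with the called intervals, and an interval with lower N440K signal covered bases 73 to 273. Kdm8 (chr7:125444370-125444669, + strand) belongs to the gene whose summed signal had the smallest p among those higher in N440K, and an interval covered bases 197 to 300.
Kdm5c promoter: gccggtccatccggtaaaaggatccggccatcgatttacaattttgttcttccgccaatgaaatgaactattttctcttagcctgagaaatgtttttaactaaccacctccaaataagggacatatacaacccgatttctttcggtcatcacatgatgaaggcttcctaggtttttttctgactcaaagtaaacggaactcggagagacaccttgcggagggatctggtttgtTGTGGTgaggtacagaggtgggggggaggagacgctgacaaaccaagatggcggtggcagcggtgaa
Kmt2a promoter: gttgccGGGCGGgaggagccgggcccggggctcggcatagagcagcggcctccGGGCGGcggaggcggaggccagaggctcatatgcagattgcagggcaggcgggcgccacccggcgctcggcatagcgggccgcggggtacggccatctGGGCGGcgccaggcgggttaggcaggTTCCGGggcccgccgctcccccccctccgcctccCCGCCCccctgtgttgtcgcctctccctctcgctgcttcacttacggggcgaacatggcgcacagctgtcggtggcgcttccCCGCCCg
Prdm11 promoter: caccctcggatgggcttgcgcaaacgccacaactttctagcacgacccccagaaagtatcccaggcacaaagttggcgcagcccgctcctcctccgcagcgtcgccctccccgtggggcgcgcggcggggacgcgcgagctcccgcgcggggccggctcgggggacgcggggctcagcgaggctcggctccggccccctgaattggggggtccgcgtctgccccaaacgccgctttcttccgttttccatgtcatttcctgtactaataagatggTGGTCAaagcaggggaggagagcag
Kdm8 promoter: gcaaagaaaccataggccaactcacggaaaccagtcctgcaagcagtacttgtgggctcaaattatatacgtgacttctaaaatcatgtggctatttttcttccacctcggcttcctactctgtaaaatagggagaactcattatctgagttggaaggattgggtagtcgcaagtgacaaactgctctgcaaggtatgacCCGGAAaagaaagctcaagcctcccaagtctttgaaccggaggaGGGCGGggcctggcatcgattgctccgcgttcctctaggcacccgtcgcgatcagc
The Kdm5c window had 47.0% G or C and a single RUNX core, past the bases that the interval covered. The Kmt2a window had 75.7% G or C, 5 GC boxes and 1 ETS core. The ETS core and the GC boxes printed as CCGCCC lay past the bases that the interval covered. The Prdm11 window had 67.0% G or C and 1 Bcl11a core, TGGTCA on the printed strand, past the bases that this interval covered. This window overlapped 2 tested intervals, and the bases given are those of the interval with the longest overlap. Whether the other interval covered the core is not reported here. The Kdm8 window had 1 ETS core and 1 GC box, both within the covered bases.

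Over the 35 overlapped member windows the median share of G or C was 64.7%, against 52.7% in all 32851 windows of the table and in the 15 member windows without a tested interval. TGACCA was in 5.71% of the overlapped member windows (2 of 35) and in 13.6% of all windows, and TGTGGT in 8.57% and 16.8%. CCGGAA was in 28.6% and 14.9%, and GGGCGG in 71.4% and 35.7%. These shares are a description with no test and no matching for base composition, and a match is not a site. Overlapped windows of other genes were not counted separately, so overlapped member windows stand beside windows with and without an interval.

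The median signal over the 267 intervals was 16.2 CPM, against 11.8 CPM over all tested intervals. Of the 267, 171 (64.0%) lay above that overall median, though 28 of the 62 of the PRDM list did, and 37.1% were in the top quartile of all tested intervals. Of the 267, 34.8% lay within 1 kb of either end of the gene, 47.2% further inside the body and 17.98% outside it, against 32.5%, 39.0% and 28.3% of all tested intervals. Ends are the outer limits of the annotated gene, and starts further inside counted as body. Neighbouring intervals were close together, with 127 adjacent pairs starting under 1 kb apart, and neighbours may share reads, so they are not independent.

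The strongest was at the start of Kdm5c, an X-linked demethylase of H3K4. Its signal was 130, 104 and 120 CPM in wild type against 96.9, 115 and 139 CPM in N440K. The groups overlapped, and the log2 fold change of N440K over wild type was 0.00 ± 0.11 (SE; edgeR's quasi-likelihood test, adjusted p = 0.996). The next strongest lay 45.9 kb outside Kmt2e, a member of the MLL family without known methyltransferase activity, at 81.8, 80.3 and 93.6 CPM in wild type against 96.9, 97.6 and 91.6 CPM in N440K. Wild type replicate 3 lay within the N440K range, and the log2 fold change was 0.16 ± 0.11 (adjusted p = 0.592). Another gene, Gm17434, lies 47.5 kb from this interval, nearly as close as Kmt2e. The third, at an end of Setd5, had 58.9, 53.5 and 41.2 CPM in wild type against 67.6, 77.5 and 58.3 CPM in N440K (log2 fold change 0.41 ± 0.14, adjusted p = 0.127). Others among the 12 strongest lay at Kmt5b (57.3 and 53.7 CPM), Kdm3a (54.2 CPM), Kdm2b (51.5 CPM), Nsd3 (51.4 CPM), Kmt2c (50.9 CPM), Setd1b (49.3 CPM), Kmt2d (47.9 CPM) and Setd4 (47.2 CPM). All of these 12 had adjusted p above the threshold of 0.05, and their log2 fold changes lay between -0.18 and 0.41.

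**Figure D1:**
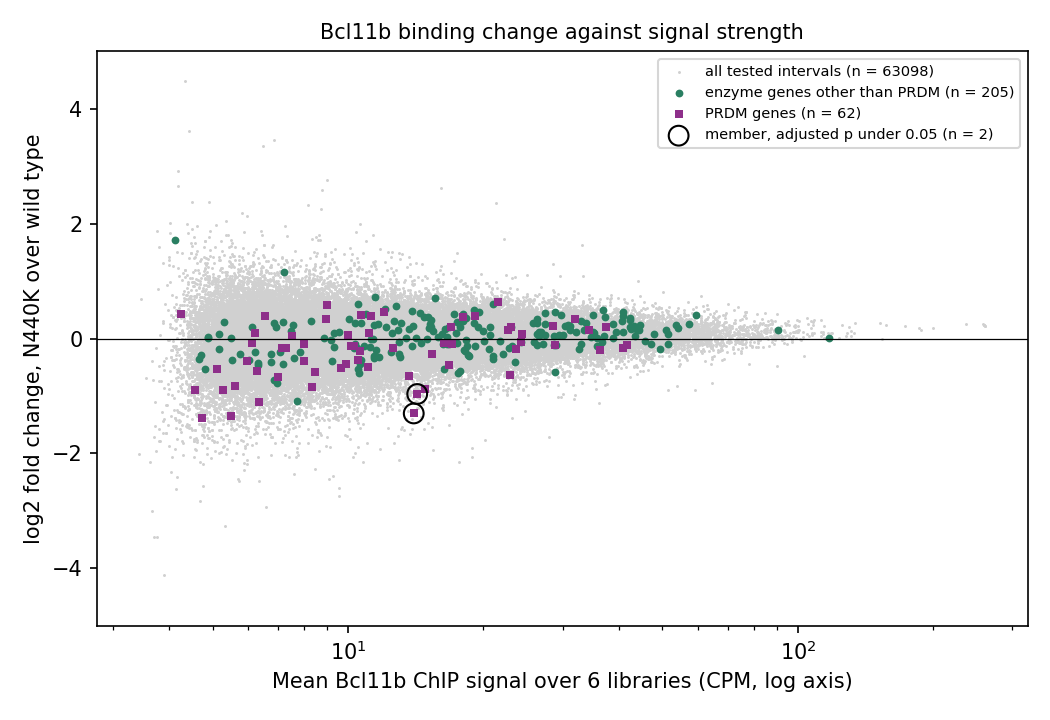
Log2 fold change of N440K over wild type (vertical) against the mean signal over the 6 libraries in CPM (horizontal, log axis), for all 63098 tested intervals (grey), the 205 intervals of enzyme genes outside the PRDM list (circles) and the 62 of the PRDM list (squares). The 2 ringed intervals, both at Prdm11, are the members with adjusted p under 0.05, at log2 fold changes of -1.30 and -0.97.

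Of the 267 tested member intervals, 2 differed between the genotypes at an adjusted p under 0.05 (edgeR's quasi-likelihood test, Benjamini-Hochberg over all 63098), against 1.14% of the whole table (0.681% lower and 0.46% higher). Both were lower in N440K, and both lay in the body of Prdm11, a PR-domain protein described as a transcriptional repressor. The stronger change was at chr2:92972189-92972389, 73876 bp downstream of the Prdm11 start, where wild type libraries had 19.2, 18.9 and 21.5 CPM and N440K libraries 6.64, 11.0 and 6.77 CPM. All 3 N440K libraries were below all 3 wild type libraries, at 0.405 times the wild type level (log2 fold change -1.30 ± 0.26, adjusted p = 0.00326). The second, at chr2:92971626-92971826, had 18, 19.3 and 19.3 CPM in wild type against 7.75, 9.15 and 12 CPM in N440K. Again the groups did not overlap (log2 fold change -0.97 ± 0.25, adjusted p = 0.0357). The third interval of this cluster, at chr2:92971317-92971517, had 24.8, 18.5 and 15 CPM in wild type against 16.6, 6.71 and 7.29 CPM in N440K. Here N440K replicate 1 lay above wild type replicate 3, and the log2 fold change of -0.89 ± 0.27 did not pass (adjusted p = 0.0904). With DESeq2, which called 0.0951% of all intervals, neither of the 2 passed (adjusted p = 0.154 and 0.550), and with limma voom, which called 0.504%, the first did. The second also lost its call in 5 of the 6 fits that left out a library: without wild type replicate 1 (adjusted p = 0.0642), 2 (0.103) or 3 (0.1003), or N440K replicate 1 (0.199) or 2 (0.0931).

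Prdm11 had 28 deposited and 21 tested intervals, from 79781 bp downstream to 60850 bp upstream of its start. Of the 21, 15 were lower and 6 higher in N440K by sign. Its strongest interval, 414 bp inside the gene, had 31.6, 52.7 and 43.8 CPM in wild type against 39.9, 40.3 and 37.5 CPM in N440K, with overlapping groups (log2 fold change -0.16 ± 0.16, adjusted p = 0.747). At the promoter, in the window printed above, the interval at chr2:93046143-93046343 had 22.9, 33.8 and 26.2 CPM in wild type against 19.4, 20.1 and 15.1 CPM in N440K. The groups did not overlap there (log2 fold change -0.63 ± 0.21, adjusted p = 0.118). The farthest upstream interval had 9.91, 7 and 6.87 CPM in wild type against 2.77, 4.88 and 1.56 CPM in N440K (log2 fold change -1.35 ± 0.44, adjusted p = 0.113). The 6 intervals of higher sign, at log2 fold changes between 0.10 and 0.58, included 5 between 3.4 and 30.2 kb outside the gene. Intervals of lower sign thus lay at both ends of the assigned stretch and around the start, and those of higher sign between.

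**Figure D2:**
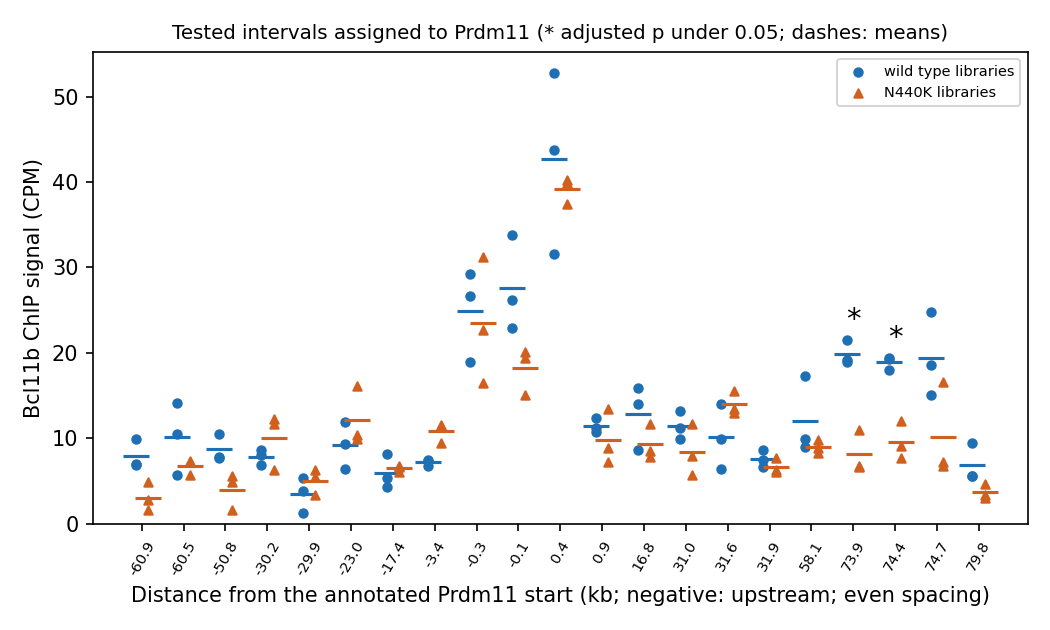
Signal in CPM of each library (circles wild type, triangles N440K, dashes group means) at the 21 tested intervals assigned to Prdm11, placed at even spacing in order of their distance in kb from the annotated start (negative is upstream). Asterisks mark the 2 intervals with adjusted p under 0.05, 73876 and 74439 bp downstream, where every N440K library lay below every wild type library.

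Genes beside Prdm11 were read from the same fit. Syt13, past the 3' end of Prdm11, had 13 tested intervals within 250 kb, of which 12 were lower in N440K by sign, 5 with an unadjusted p under 0.05 and 0 with an adjusted one (median log2 fold change -0.37). Trp53i11, on the other side, had 22, of which 11 were lower by sign (median 0.01). Tspan18 had 3, of which 3 were lower by sign and 0 called (median -0.45). The median over the 21 Prdm11 intervals was -0.37. Which gene any of these intervals acts on was not tested.

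At an unadjusted p under 0.05, 41 of the 267 intervals (15.4%) differed, 19 lower and 22 higher, against 12.7% of all tested intervals (6.52% lower and 6.16% higher). At 47 of the 267 (17.6%) every library of a genotype lay above every library of the other, against 17.3% of all. The median log2 fold change was 0.03, against 0.00 for all. The shares of changed intervals were thus near those of the whole table. By sign, 121 were lower and 146 higher, against 49.5% and 50.5% of all.

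**Figure D3:**
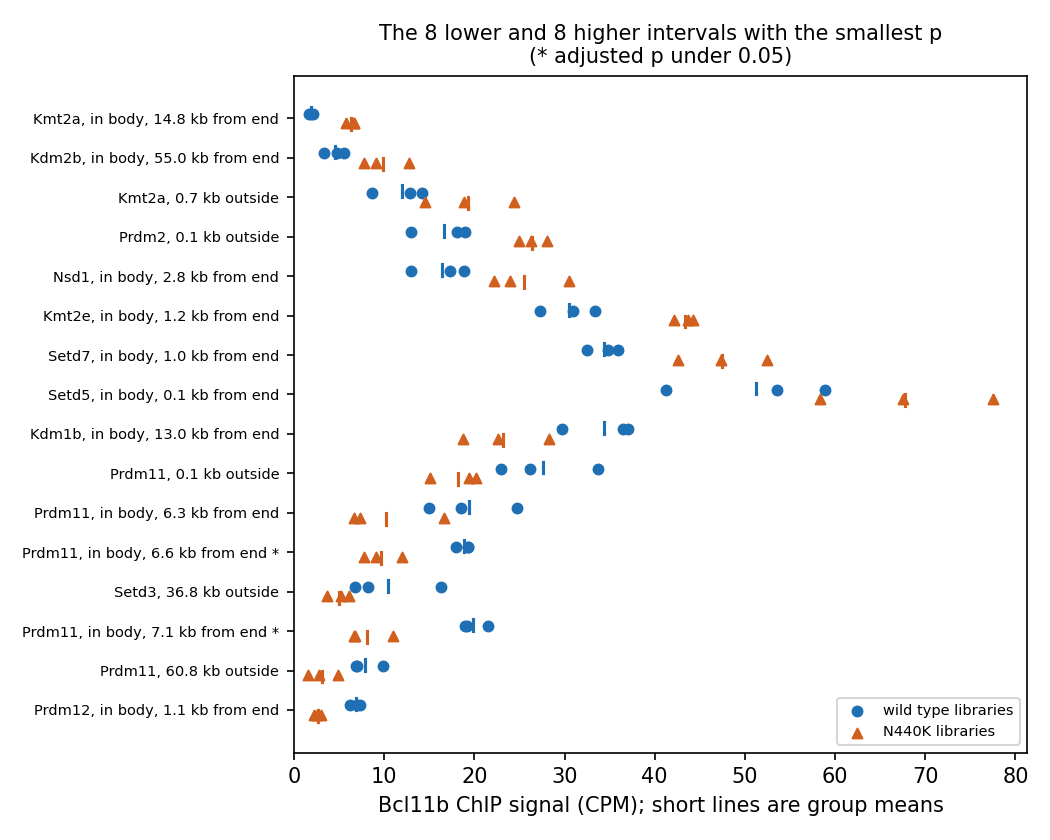
Signal in CPM of each library (circles wild type, triangles N440K, short lines group means) at the 8 member intervals higher and the 8 lower in N440K with the smallest p, labelled by gene and distance to its nearest end. The 2 rows with an asterisk, at Prdm11, had adjusted p under 0.05, and the other 14 had not.

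Reads were then summed over all deposited intervals of each gene, which gave 47 member genes among the 14213 tested (CPM here is scaled to the reads assigned to genes, and sums grow with the number of intervals). The sums of 3 members differed at an adjusted p under 0.05 (edgeR's quasi-likelihood test), against 4.74% of all genes tested (3.19% lower and 1.55% higher). They were Prdm11, Prdm8 and Prdm12, all lower in N440K and all of the PRDM list. In simulated gene sums false calls were more frequent than the threshold allows, so some of the calls over all genes may be false. At an unadjusted p under 0.05 there were 15, 5 lower and 10 higher, against 18.0% of all genes (9.91% lower and 8.07% higher), and by sign 19 were lower and 28 higher (49.3% and 50.7% of all genes). DESeq2 called 1 member, Prdm11, and 1.78% of all genes, and limma voom called 4, the same 3 and Kdm8, and 4.45% of all genes. For 14 of the 47 the groups did not overlap, against 21.7% of all genes.

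Prdm11 sums were 288, 310 and 300 CPM in wild type against 240, 241 and 235 CPM in N440K. The groups were well apart, at 299 ± 11.0 and 238 ± 3.34 CPM (SD, n = 3 each), and the log2 fold change was -0.33 ± 0.07 (SE; adjusted p = 0.00552). Prdm8, a PR-domain protein with roles in neurons, had 67.6, 72.6 and 59.2 CPM in wild type against 45.7, 52.5 and 36.9 CPM in N440K. Each N440K library was below each wild type library (log2 fold change -0.57 ± 0.14, adjusted p = 0.00994), and its 6 tested intervals were all lower by sign, none called alone. Prdm12, known from sensory neuron development, had 24.1, 21.6 and 16.6 CPM in wild type against 13.7, 8.65 and 7.99 CPM in N440K. These groups did not overlap either (log2 fold change -1.02 ± 0.25, adjusted p = 0.0115). Prdm12 signal was weak: its tested interval with the smaller p had 6.20, 7 and 7.30 CPM in wild type against 2.21, 3.05 and 2.60 CPM in N440K (adjusted p = 0.126). Around Prdm12 the neighbour Fibcd1 had 10 tested intervals within 250 kb, 8 lower by sign, 3 at an unadjusted p under 0.05 and 1 called (median log2 fold change -0.31), while no Prdm12 interval was called singly. The other neighbours went both ways, with 0 called at each. Medians were 0.07 at Abl1 (9 intervals), 0.42 at Hmcn2 (2), 0.25 at Lamc3 (2), 0.44 at Qrfp (1) and 0.03 at Fubp3 (1). At Ass1 (4 intervals) and Exosc2 (3) they were -0.23 and -0.42. Around Prdm8 the neighbour Antxr2 had 8 tested intervals, of which 2 were lower by sign and 0 called (median 0.08). Cfap299 had 1, lower by sign and not called (-0.68). Prdm8 lost its call without wild type replicate 2 (adjusted p = 0.0752) or N440K replicate 3 (0.102), and with DESeq2 (0.0754). Prdm12 lost it without wild type replicate 1 (0.0573) or 2 (0.0534) or N440K replicate 2 (0.0534) or 3 (0.0802), with DESeq2 (0.0871), and on tested intervals only (0.107).

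**Figure D4:**
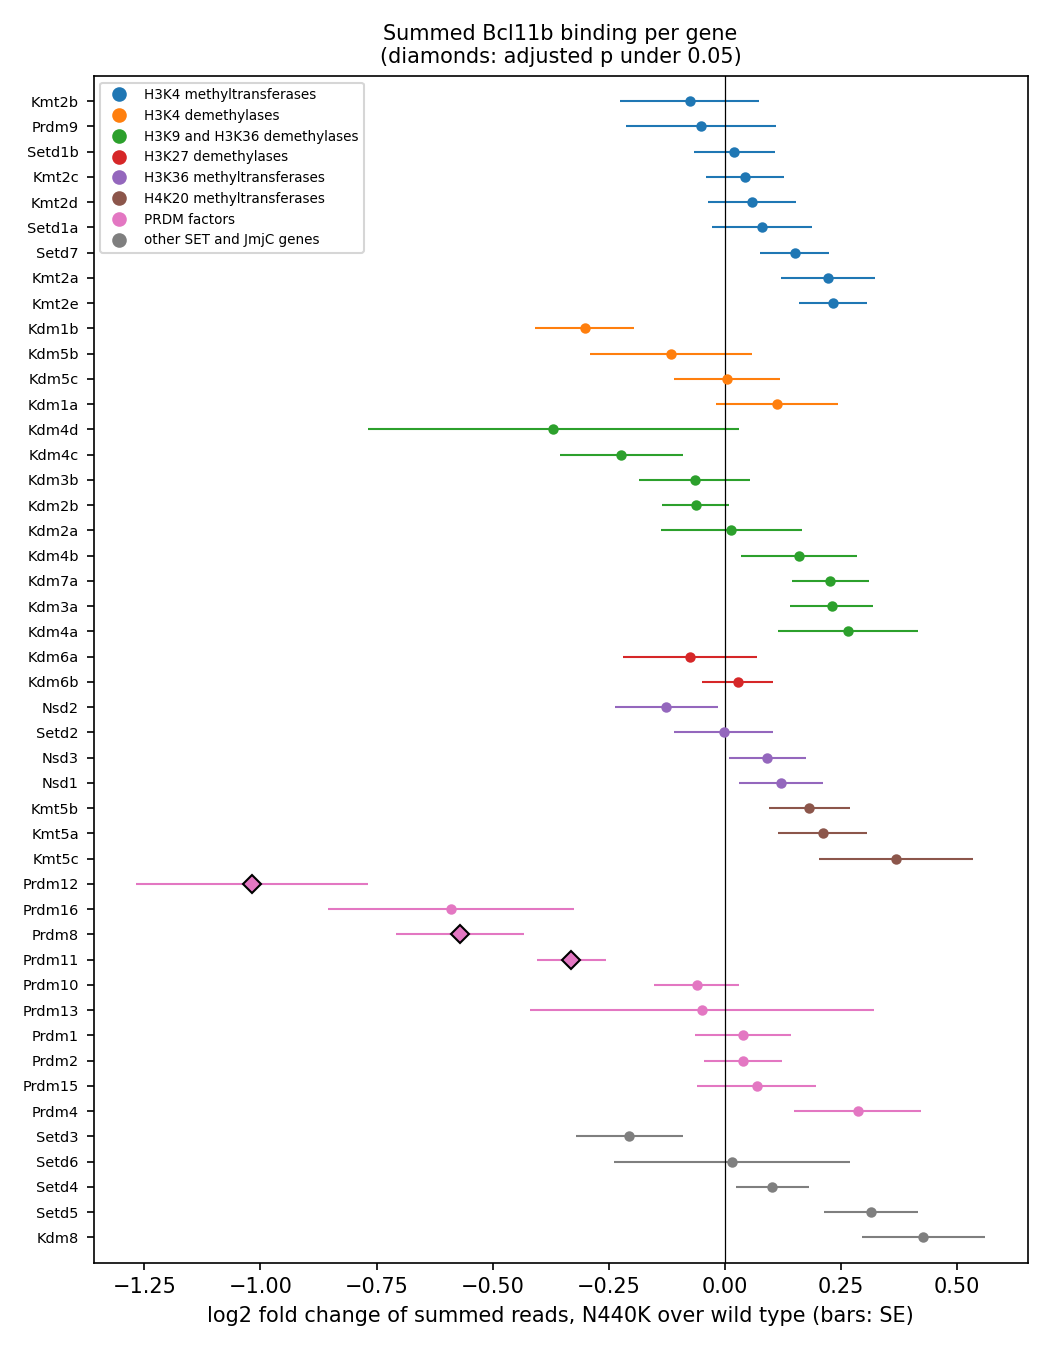
Log2 fold change of summed reads, N440K over wild type, with its SE (bars) for member genes tested (1 of the 47 is not shown), ordered within the 8 role lists (colours). Diamonds mark the 3 sums with adjusted p under 0.05, Prdm11 at -0.33, Prdm8 at -0.57 and Prdm12 at -1.02.

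The other PRDM genes went in both directions by sign. In this list of 13 genes, which leaves Prdm9 to the H3K4 methyltransferases, 11 were tested in the sums, 7 lower and 4 higher by sign, with a median log2 fold change of -0.06 against 0.00 for all genes. Prdm16, known for brown fat and stem cell programs, had 13.5, 14.7 and 14.9 CPM in wild type against 7.35, 12.1 and 9.48 CPM in N440K, from 4 intervals too weak to be tested singly (log2 fold change -0.59 ± 0.26, adjusted p = 0.219). Prdm1, encoding Blimp1, had 137, 110 and 133 CPM in wild type against 147, 112 and 128 CPM in N440K, with overlapping groups (0.04 ± 0.10, adjusted p = 0.897). Prdm2, a methyltransferase also called RIZ, had sums of 164, 165 and 158 CPM in wild type against 161, 170 and 170 CPM in N440K. Those groups overlapped (0.04 ± 0.08, adjusted p = 0.869), while the interval at an end of the gene, chr4:143212735-143212935, had 13.0, 18.9 and 18 CPM in wild type against 24.9, 26.2 and 28.1 CPM in N440K (log2 fold change 0.63 ± 0.21, adjusted p = 0.116). The strongest Prdm10 interval, 25.1 kb inside the gene, had 43.5 ± 7.40 and 39.8 ± 5.05 CPM (log2 fold change -0.12). Prdm4 (0.29), Prdm15 (0.07) and Prdm13 (-0.05) had adjusted p of 0.257 or more.

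Over the 62 single intervals of the PRDM list the log2 fold change had a median of -0.14, 40 of them lower by sign, and -0.12 over 41, 25 of them lower, without Prdm11. The 205 other member intervals had a median of 0.07, 124 of them higher by sign. The lists also differed in strength, with median signals of 10.9 CPM for PRDM and 17.5 CPM for the others. In the table as a whole the median log2 fold change by quartile of signal, from weakest to strongest, was -0.08, -0.04, 0.01 and 0.06 over all intervals, and -0.26, -0.13, 0.10 and 0.11 over the members. With loess offsets, which remove a trend with signal, the PRDM median was -0.13 and that of the others 0.04. No test was made of these list medians.

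Among the 9 genes of the H3K4 methyltransferase list, which holds Kmt2e as an MLL family member, none of the sums passed, 7 were higher and 2 lower by sign, and the median was 0.06. Kmt2e came nearest, with 282, 265 and 282 CPM in wild type against 311, 335 and 326 CPM in N440K. All 3 N440K libraries were above all 3 wild type libraries (log2 fold change 0.23 ± 0.07, adjusted p = 0.0600). The sum includes the strong interval 45.9 kb outside the gene, which lies 47.5 kb from Gm17434. The sum passed with total counts in place of TMM (0.0377) and with loess offsets (0.0296). Of its 11 tested intervals 10 were higher by sign, among them an interval 1.2 kb inside the gene with 27.3, 33.3 and 30.9 CPM in wild type against 44.3, 42.1 and 43.7 CPM in N440K (0.49 ± 0.16, adjusted p = 0.113). Setd7, a monomethyltransferase of H3K4 that also acts on other proteins, had 335, 333 and 372 CPM in wild type against 397, 408 and 352 CPM in N440K. N440K replicate 3 lay below wild type replicate 3 (0.15 ± 0.07, adjusted p = 0.285). Its 6 intervals within 1 kb of a gene end had 33.5 to 42.5 CPM, and that at chr3:51559726-51559926, 997 bp inside the gene, had 35.9, 32.5 and 34.8 CPM in wild type against 42.6, 52.5 and 47.4 CPM in N440K (0.47 ± 0.15, adjusted p = 0.121).

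Kmt2a, the MLL1 gene, held the member interval with the largest log2 fold change. In the body, at chr9:44866452-44866652, it had 1.86, 1.65 and 2.15 CPM in wild type against 6.64, 6.71 and 5.73 CPM in N440K. The groups were far apart, but this was among the weakest intervals, at 4.12 CPM on average, and the log2 fold change of 1.72 ± 0.51 did not pass (adjusted p = 0.0758). It passed only with loess offsets (adjusted p = 0.0290). Upstream of the start, at chr9:44881966-44882166, Kmt2a had 14.3, 8.65 and 12.9 CPM in wild type against 18.8, 24.4 and 14.6 CPM in N440K (0.71 ± 0.25, adjusted p = 0.164). Its sum of 100.4 ± 7.59 and 118 ± 9.90 CPM had a log2 fold change of 0.22 ± 0.10 (adjusted p = 0.227). Kmt2b (-0.08), Kmt2c (0.04), Kmt2d (0.06), Setd1a (0.08), Setd1b (0.02) and Prdm9 (-0.05), the meiotic H3K4 methyltransferase, had sums with adjusted p of 0.765 or more.

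Of the 6 H3K4 demethylase genes 4 were tested in the sums, and none passed. Kdm1b (LSD2) had 98.2, 103 and 99.0 CPM in wild type against 88.2, 82.4 and 73.9 CPM in N440K. Every N440K library was lower (log2 fold change -0.30 ± 0.11, adjusted p = 0.0974). In the body, the interval at chr13:47056250-47056450 had 29.7, 37.1 and 36.5 CPM in wild type against 28.2, 22.6 and 18.7 CPM in N440K (-0.59 ± 0.18, adjusted p = 0.101). At the start of Kdm1b the strongest interval had 32.8, 36.6 and 32.2 CPM and 39.3, 37.8 and 32.8 CPM, of the opposite sign (0.10 ± 0.16, adjusted p = 0.853), and there the gene Tpmt lies 0.2 kb away. Kdm1a (LSD1) was at 0.11 and Kdm5b at -0.12, with adjusted p of 0.724 and 0.796.

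The 9 genes of H3K9 and H3K36 demethylases gave no called sum, with 5 higher and 4 lower by sign. Kdm3a, a demethylase of H3K9, had 141, 127 and 129 CPM in wild type against 157, 159 and 148 CPM in N440K, without overlap (log2 fold change 0.23 ± 0.09, adjusted p = 0.146). Kdm7a, which acts on H3K9 and H3K27, had 202, 195 and 191 CPM in wild type against 223, 255 and 211 CPM in N440K, also without overlap (0.23 ± 0.08, adjusted p = 0.117). Of its 12 tested intervals 10 were higher by sign. Most of the 12, the 2 of lower sign among them, lay 49.8 to 58.2 kb outside the gene. Kdm2b, a demethylase that brings a Polycomb complex to CpG islands, had 21 tested intervals, as many as Prdm11, and sums of 345, 379 and 390 CPM in wild type against 341, 360 and 368 CPM in N440K. They overlapped (-0.06 ± 0.07, adjusted p = 0.716), and 12 intervals were lower and 9 higher by sign. A weak Kdm2b interval in the body, at chr5:122925583-122925783, had 5.58, 3.29 and 4.72 CPM in wild type against 12.7, 9.15 and 7.81 CPM in N440K (1.15 ± 0.36, adjusted p = 0.106). Kdm2a (0.01), Kdm3b (-0.07), Kdm4a (0.26), Kdm4b (0.16), Kdm4c (-0.22) and Kdm4d (-0.37) had adjusted p of 0.372 or more.

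The H3K36 methyltransferases Nsd1 (0.12), Nsd2 (-0.13), Nsd3 (0.09) and Setd2 (-0.00) had sums with adjusted p of 0.537 or more. A body interval of Nsd1, at chr13:55212450-55212650, had 13.0, 17.3 and 18.9 CPM in wild type against 22.1, 30.5 and 23.9 CPM in N440K, without overlap (log2 fold change 0.60 ± 0.21, adjusted p = 0.160). The strongest Nsd1 interval, in the body 1.4 kb from the nearer outer limit of the gene, was at 38.0 ± 2.67 and 40.8 ± 5.03 CPM (0.11). Of the H3K27 demethylases, Kdm6b had sums that were 222, 231 and 237 CPM in wild type against 231, 232 and 241 CPM in N440K (0.03 ± 0.08, adjusted p = 0.903). Kdm6a sums were 110, 114 and 101 CPM and 61.4, 129 and 118 CPM, with N440K replicate 1 far below the rest (-0.08 ± 0.14, adjusted p = 0.848). None of their 17 tested intervals reached an unadjusted p under 0.05, and all 17 counted as gene body. For Kdm6a this class includes intervals at an annotated start further inside than the outer limit of the gene. An interval there covered bases 1 to 189 of the Kdm6a promoter window, with a log2 fold change of 0.43.

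The sums of the 3 H4K20 methyltransferase genes were all higher in N440K at an unadjusted p under 0.05 and none at an adjusted one, where 8.07% of all genes were higher at an unadjusted p under 0.05. Kmt5a, which places the first methyl group, had 119, 112 and 122 CPM in wild type against 132, 150 and 127 CPM in N440K (log2 fold change 0.21 ± 0.10, adjusted p = 0.227). Kmt5b had 155, 184 and 167 CPM in wild type against 178, 195 and 204 CPM in N440K (0.18 ± 0.09, adjusted p = 0.260). Kmt5c had 30.0, 25.9 and 25.3 CPM in wild type against 32.0, 39.2 and 32.9 CPM in N440K (0.37 ± 0.17, adjusted p = 0.221). The groups did not overlap for Kmt5a and Kmt5c and overlapped for Kmt5b. At the start of Kmt5b the strongest interval of the list had 52.0, 56.8 and 47.2 CPM in wild type against 57.6, 67.1 and 63.0 CPM in N440K (0.26 ± 0.13, adjusted p = 0.396).

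Of the 5 other SET and JmjC genes, Kdm8, a JmjC protein with reported hydroxylase and peptidase activity, had 51.2, 57.5 and 41.0 CPM in wild type against 71.4, 65.1 and 64.9 CPM in N440K. All N440K libraries were higher (log2 fold change 0.43 ± 0.13, adjusted p = 0.0559), and so were its 4 tested intervals by sign. The sum passed without wild type replicate 2 (adjusted p = 0.0292) and with limma voom (adjusted p = 0.0496). Setd5 had 112, 120 and 98.6 CPM in wild type against 136, 152 and 124 CPM in N440K, again without overlap (0.31 ± 0.10, adjusted p = 0.0644). It passed without wild type replicate 2 (adjusted p = 0.0489). Setd4 (0.10) and Setd6 (0.02) had adjusted p of 0.553 and 0.988.

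Setd3, the actin histidine methyltransferase, is the member on chromosome 12 and lies beside Bcl11b itself. Its sum was 78.8, 92.7 and 90.3 CPM in wild type against 66.7, 87.0 and 75.4 CPM in N440K, with overlap (log2 fold change -0.21 ± 0.12, adjusted p = 0.359). The interval at chr12:108069561-108069761, 36.8 kb outside Setd3 and 65.5 kb from Bcl11b, had 6.82, 8.23 and 16.3 CPM in wild type against 6.09, 3.66 and 5.21 CPM in N440K. Wild type replicate 3 was far above the rest (-1.08 ± 0.36, adjusted p = 0.129). Of 27 tested intervals of Bcl11b in the 250 kb around Setd3, 25 were lower in N440K by sign and 8 were called (median -0.63). For the 7 Setd3 intervals the median was -0.27, with 5 lower by sign, and the 3 at its own start lay between -0.27 and 0.11.

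Fold changes were then set out by position within the gene, with its outer limits as ends. Intervals at annotated starts further inside, as at Kdm6a, Kdm2b, Kmt2d, Kdm4c and Kmt5a, counted as body. Their part in the medians was not tested. Member intervals within 1 kb of a gene end had a median log2 fold change of 0.14 over 93, those further inside the body -0.09 over 126, and those outside 0.09 over 48. For all tested intervals the medians were 0.03, -0.01 and -0.02. At the ends, 62 of the 93 were higher by sign (66.7%), against 54.5% of all intervals at gene ends, and 17 (18.3%) had an unadjusted p under 0.05, 13 of them higher, against 1943 of 20527 (9.47%), 1119 of them higher, for all intervals at gene ends. No test was made of these shares, and neighbouring intervals are not independent. Member intervals at ends were also stronger, at a median of 22.9 CPM against 14.7 CPM in the bodies, and against 15.8 CPM for all intervals at gene ends. With loess offsets the member medians were 0.08, -0.10 and 0.07, against 0.01, -0.01 and -0.01 for all tested intervals. Within the PRDM list the medians were -0.10 over 16 intervals at ends and -0.19 over 32 in bodies, and for the other genes 0.15 over 77 and -0.03 over 94. These differences were not tested.

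**Figure D5:**
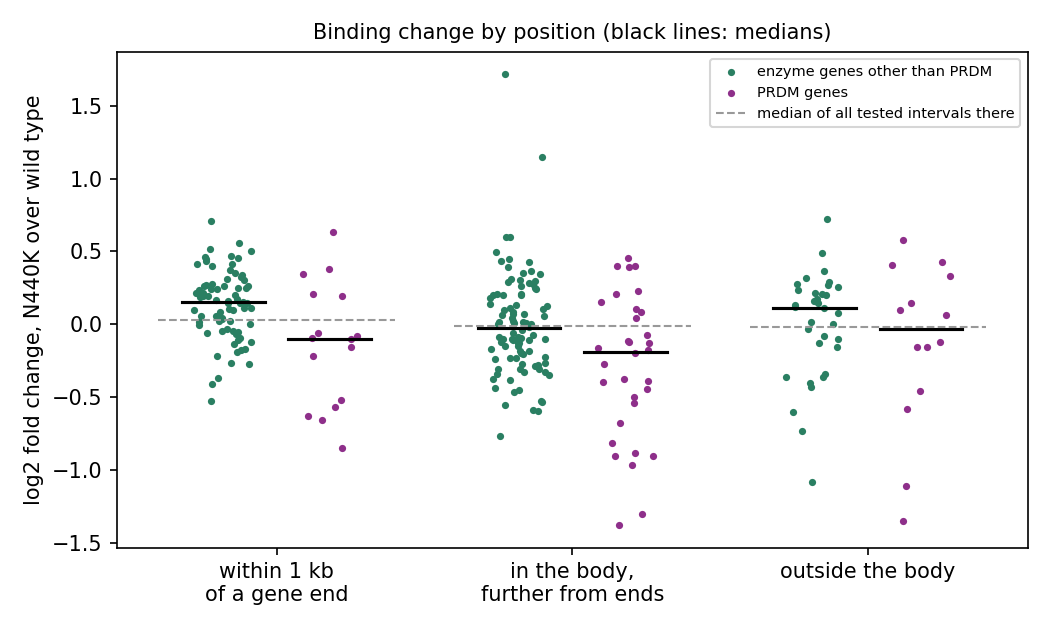
Log2 fold change of N440K over wild type for each tested member interval by position, for the PRDM list (right of each pair) and the other enzyme genes (left, Prdm9 included), with medians as black lines and the median of all tested intervals there as dashed grey lines. Intervals of the other genes within 1 kb of a gene end sit highest, with a median of 0.15. PRDM intervals in gene bodies sit lowest, with a median of -0.19. Bodies include annotated starts more than 1 kb inside the outer limits of a gene.

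Further enzymes and partners were read from lists by name. Of 24 histone lysine methylation enzymes with other symbols, 21 had tested intervals, 103 in all, of which 1 was called, against 1.14% of all intervals. It lay at Riox2, a JmjC protein, at 5.68 ± 2.85 CPM in wild type against 13.2 ± 1.48 CPM in N440K (log2 fold change 1.22 ± 0.33, adjusted p = 0.0431). All 12 subunits of the COMPASS and MLL complexes, the partners of the H3K4 methyltransferases, had tested intervals, 40 in all, and 0 were called, with 3 at an unadjusted p under 0.05, against 12.7% of all intervals. None of the sums of these 21 and 12 genes was called (edgeR's quasi-likelihood test).

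Some members gave little or no signal. No interval was assigned to Prdm14, Prdm6 or Kdm5a. Kdm5a is a demethylase of H3K4 expressed widely, and Prdm14 is known from germ cells. Prdm13, Prdm16 and Kdm5d had only untested intervals. The 94 untested intervals had 0 to 28 reads per library. Kdm5d, the Y-linked relative of Kdm5c, had a single one, with 0, 0 and 0 reads in wild type and 17, 1 and 0 reads in N440K, so 17 of its reads came from N440K replicate 1. That library was also the lowest at the X-linked Kdm5c and in the Kdm6a sum, and without it the log2 fold change of the strongest Kdm6a interval was 0.17 in place of -0.12. The labels do not name the sex of the animals, and its part in these values was not tested.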

How the data were processed

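Bcl11b ChIP-seq of mouse thymocytes comprised 3 ChIP libraries of Bcl11b+/+ and 3 of Bcl11b+/N440K. Per the labels' protocols, cross-linked nuclei were sonicated and precipitated with a rabbit antibody. Per the submitters' processing notes, the build was mm10 and the tools included MACS2, edgeR 3.38.2, bedtools, Bowtie2 2.3.5, fastp 0.20.0 and SAMtools 1.9, without roles; pooling and duplicate removal are not given in the sources used here. The authors deposited raw read counts in 93708 intervals, and CPM values for 63098 of them. CPM values gave back whole reads, equal to the counts, for 100% of values (tolerance 0.01 reads).

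Members and lists were chosen with earlier results of these data known. Counts were filtered with filterByExpr by genotype, scaled with TMM and tested with edgeR 4.0.16 (glmQLFit, glmQLFTest; R 4.3.3), two-sided, genotype only, Benjamini-Hochberg over the whole table, threshold 0.05. SE is the absolute log2 fold change divided by the square root of F. Reads summed per gene were tested likewise. The scripts were tested on simulated data, where false calls stayed under the threshold's rate for intervals and exceeded it for gene sums. A permutation test of 3 against 3 libraries cannot go below p = 0.1 and was not used. Tested reads per library were 1609762 to 2400250.

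Genes were placed by the RefSeq annotation of GRCm38.p6, without exons. The text names the called intervals, the 8 of smallest p per direction, the 12 strongest and the strongest of 2 genes per role list, and the called gene sums, the 5 with the smallest p per direction and the 8 with most intervals or reads. Values of further list members are also printed; 1 gene is counted but not reported singly here. Alternatives were DESeq2 1.42.0, limma voom 3.58.1, other scalings, filters and distances, a replicate block, and leaving out each library or X and Y. Counts from the CPM table and fits without chromosome 12 were chosen after seeing the data.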

Additional observations from a re-analysis of the deposited data

How the results depend on the processing

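Of 52 named results (36 intervals, 16 gene sums), 46 kept their sign under every alternative. Some of the alternatives could not change a sign. The threshold of 0.01 and, for intervals, the 20 kb limit reused the main fit, and counts recovered from CPM equalled the deposited counts. The 2 called intervals numbered 0 with DESeq2, 1 with limma voom, 1 at an adjusted p of 0.01 and 1 to 2 when a library was left out, and over all intervals the 720 calls fell to 60 with DESeq2, 318 with limma voom, 549 within 20 kb, 207 at 0.01 and 301 to 588 without a library. The 3 called sums numbered 1 with DESeq2, 1 to 3 when a library was left out, and 2 without the weaker sums or intervals. Over all genes the 673 calls became 253 with DESeq2, 310 at 0.01, 406 without the weaker sums, 449 on tested intervals and 377 to 573 without a library. The Prdm11 sum passed in all 20 alternatives, with adjusted p from 0.000234 to 0.0346. The lower counts at 0.01, and for intervals within 20 kb, come from the main fit with a stricter cut or fewer intervals. The cause of the other differences was not tested. The share of members at gene ends, 34.8%, was 53.2% within 5 kb and 26.3% over all deposited intervals, both from the wider or fuller definition.

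Deviations of same-numbered libraries from their group means had correlations of -0.004, 0.028 and 0.058, against -0.047 to 0.017 for differently numbered ones. All were small, and counting noise may hide a shared deviation, so these values cannot decide whether the numbers pair libraries. The labels do not say. With a replicate block the called sums numbered 6 (Kdm8, Kmt2e and Setd5 added), and 7 with loess offsets (Kdm1b too), and 3 intervals were called, all at Prdm11.

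Signs changed for uncalled values near 0. Kdm5c (main 0.00) was -0.016 with total counts, -0.11 with loess offsets, -0.012 with intervals at or above the median CPM and -0.10 with block and loess. Kmt2d was -0.0026 with loess offsets and -0.00088 with the block too. Leaving out a library gave -0.14 to 0.13 for Kdm5c, -0.30 to 0.029 for Prdm11 at 414 bp, -0.015 to 0.17 for Nsd3, -0.38 to 0.17 for Kdm6a (0.012 without wild type replicate 2) and -0.0015 to 0.044 for the Kdm6b sum. At this depth weak sites such as those of Prdm12 and Prdm16 were read mainly as sums, and without a filter the Kdm5d interval and sum were called, with 17 of the reads from N440K replicate 1.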
